A study of Mus musculus with 24 samples.

Results

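DNA replication and S phase genes were followed across regulatory T cells (Treg) and conventional CD4 T cells (Tconv) of the mouse liver and of 3 lymphoid sites. The 42 genes were taken by symbol: each listed symbol was matched to its mouse Ensembl gene in the deposited table, which lists 35612 genes, and all 42 were found. All 42 also passed the filter on low values (a normalized read count of at least 10 in at least 3 of 24 libraries). They code for proteins that license origins (Mcm2 to Mcm7, Cdc6, Cdt1, Gmnn), activate the helicase (Mcm10, Cdc45, Gins1 to Gins4), synthesize DNA (Pola1, Pola2, Prim1, Prim2, Pold1, Pold2, Pole, Pole2), form and load the sliding clamp (Pcna, Rfc1 to Rfc5), bind single-stranded DNA (Rpa1, Rpa2), join Okazaki fragments (Fen1, Lig1), supply nucleotides (Rrm1, Rrm2, Tyms, Tk1, Dut), copy chromatin (Uhrf1, Chaf1a, Chaf1b) and drive S phase transcription (E2f1).

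All 24 libraries came from male C57BL/6 mice of the Foxp3Thy1.1 strain, aged 5 months, in which a Thy1.1 reporter is tied to Foxp3. Each library was made from cells pooled from 3 mice, with 3 pools for each of 8 groups: Treg and Tconv from liver, from the liver-draining lymph node (LDLN), from blood mononuclear cells (PBMC) and from spleen. No group carried a gene deletion or a drug treatment in the labels. CD4 cells were enriched and then sorted as live CD45+ TCRβ+ CD4+ cells that lacked CD8α, NK-1.1 and CD1d-tetramer binding, split by Foxp3. The p-values below measure the spread between pools, and nothing in the labels separates mice within a pool.

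Before a cell can copy its genome, the origin recognition complex, Cdc6 and Cdt1 load the ring-shaped Mcm2-7 helicase onto DNA, and Cdc45 and the GINS complex later switch that helicase on. Primase and polymerase alpha lay down primers, polymerases delta and epsilon extend them while held by the PCNA clamp, and ligase seals the lagging strand. Many of these genes are targets of the E2F transcription factors, whereas genes of mitosis are commonly read through CHR and CCAAT elements. Resting T cells copy no DNA, while a fraction of Treg is known to be in cycle in the steady state.

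The start-site regions of the genes were read first, because a shared E2F element is what these genes are known for. RefSeq windows of 300 bases (250 before to 50 after the start, build GRCm38.p6) were at hand for 34 of the 42 genes. Searched on both strands, an E2F motif (TTTCCCGC, TTTGGCGC, TTTCGCGC or TTTGCCGC) was found in 13 of the 34, or 38.2%, against 2.6% of the 27025 genes with such a window. The 13 were Mcm3, Mcm5, Mcm6, Mcm7, Cdc6, Cdt1, Gins3, Pola1, Pold1, Pole2, Rfc3, Lig1 and Uhrf1. The CHR motif (TTTGAA) was in 14.7% of the 34 genes and in 20.2% of all genes with a window, and CCAAT was in 58.8% against 41.1%. A gene with several windows counts as holding a motif if any of them does. In a list of 26 mitosis genes, of which 22 had a window, the shares were 4.55% for E2F, 77.3% for CHR and 81.8% for CCAAT. A match describes the letters of the window and is no evidence that a factor sits there.

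6 stretches of 60 bases show the motif in genes that behaved differently in the data. Cdc6, Uhrf1, Mcm5, Mcm6 and Pola1 were all higher in liver Treg than in liver Tconv, while Mcm7 was not called higher or lower in any tissue. Each is printed 5′ to 3′ on the strand of its gene, with the motif in capitals. In Mcm5 and Mcm6 the capitals hold overlapping matches on both strands. The Uhrf1 stretch came from a window inside the gene (chr17:56304063-56304362). The Uhrf1 window that holds the annotated start of the gene (chr17:56303087-56303386) had no E2F motif.
Cdc6, chr11:98907987-98908046, plus strand: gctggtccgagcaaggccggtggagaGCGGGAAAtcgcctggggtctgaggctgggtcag
Uhrf1, chr17:56304102-56304161, plus strand: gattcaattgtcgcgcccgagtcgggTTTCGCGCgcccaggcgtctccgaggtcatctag
Mcm5, chr8:75109330-75109389, plus strand: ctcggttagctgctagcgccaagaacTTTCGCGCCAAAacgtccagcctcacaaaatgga
Mcm6, chr1:128359782-128359841, minus strand: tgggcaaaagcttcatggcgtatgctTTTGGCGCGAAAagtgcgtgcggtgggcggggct
Pola1, chrX:93632260-93632319, minus strand: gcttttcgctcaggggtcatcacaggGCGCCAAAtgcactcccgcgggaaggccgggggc
Mcm7, chr5:138172015-138172074, minus strand: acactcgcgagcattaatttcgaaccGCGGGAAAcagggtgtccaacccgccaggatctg
Among members with a window, 8 of the 16 called higher in liver Treg held the E2F motif (50%), as did 5 of the other 18 (27.8%). These shares are a description, with no test.

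Some libraries stood apart from the others of their group. Foxp3, the factor that defines Treg, read 305 to 627 in 5 Tconv libraries (liver Tconv 1 and 3, LDLN Tconv 3, PBMC Tconv 1 and spleen Tconv 3) and 13.6 to 30.5 in the other 7, so each result was also computed without those 5. Liver Tconv 2 had the highest summed levels of the marker lists for natural killer cells (9592, against 1150 to 2268 in liver Tconv 1 and 3), macrophages and monocytes (10722, against 254 and 267) and neutrophils (1850, against 83.7 and 91.7). Macrophage and monocyte markers (11 of 11 in the table) also moved with cell type outside the liver: they summed to 2295 to 2743 in PBMC Treg against 363 to 660.0 in PBMC Tconv, and to 2616 to 4828 in spleen Treg against 1086 to 1170 in spleen Tconv. B and plasma cell markers (9 of 9) summed to 28255 to 93454 in spleen Treg against 21432 to 22932 in spleen Tconv, and to 34238 to 54723 in liver Treg against 18979 to 53149 in liver Tconv. The sum of neutrophil markers (6 of 6 in the table) was higher in Treg without overlap in PBMC (162 to 544 against 107 to 154) and spleen (137 to 1324 against 82.5 to 132). The sum of endothelial markers (6 of 6 in the table) was lower in Treg without overlap in liver, LDLN and spleen (5561 to 7505 in these Treg against 8293 to 9936 in these Tconv). Single markers need not follow the sum: the endothelial marker Lyve1 had no reads in any spleen Tconv pool. Erythroid markers (7 of 7) separated the sites, at 358 to 914 in LDLN libraries and 6935 to 127642 in all others. Their part in the results below was not tested. Sort markers of T cells were high throughout, at a summed 159951 to 232726, and depth ranged from 17523927 to 25398037 reads. Liver Treg 1 was the lowest of its 3 pools for 35 of the 42 genes, and liver Tconv 2 was the highest of its 3 for 31.

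Exons of 29 of the 42 genes share no base with another annotated gene (GENCODE M21, GRCm38, the build used for all gene coordinates here). In 3 genes the shared part was over 20%: Fen1 (84.2%, with Tmem258 and Gm10143), Gins2 (67.3%, with Gse1) and Chaf1a (52.5%, with Ubxn6). The sources used here do not state whether reads were counted by strand, and the levels of these 3 genes are therefore uncertain. In bulk libraries a smaller share of cells in S phase and less RNA per cell cannot be told apart.

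Abundance differed widely between the genes. Per kilobase of exon, the mean normalized count over the 24 libraries was highest for Rpa1 (1282), Mcm4 (1128), Pcna (715), Mcm6 (663) and Mcm3 (514), and lowest for Chaf1a (2.97), Fen1 (12.4), Mcm10 (18.0) and E2f1 (19.1). The spread between groups differed as well: the highest group mean was 9.29 times the lowest for Rrm2, 7.63 times for Cdc6 and 7.16 times for Mcm10, but 1.26 times for Gins4 and for Rfc2. Liver Treg held the highest of the 8 group means for 19 of the 42 genes and spleen Treg for 15, followed by spleen Tconv for 5 and LDLN Tconv for 3. The lowest mean lay in PBMC Tconv for 13 genes and in LDLN Tconv for 11.

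Each gene was then centred on its mean log2 value over the 24 libraries, and the median over the 42 genes was taken in each library. The medians were 0.11, 0.54 and 0.54 in liver Treg and −0.11, 0.11 and −0.17 in liver Tconv. In LDLN they were −0.11, −0.08 and −0.13 in Treg and −0.17, −0.20 and −0.38 in Tconv, and in PBMC −0.25, −0.17 and 0.03 against −0.21, −0.16 and −0.33. Spleen gave 0.47, 0.43 and 0.33 in Treg and 0.17, −0.02 and −0.10 in Tconv. Spleen Treg and liver Treg 2 and 3 were the highest libraries, and Treg and Tconv medians overlapped in PBMC and, with liver Treg 1 level with liver Tconv 2, met in liver. The same measure over the 26 mitosis genes was 1.60, 2.56 and 2.13 in liver Treg but 0.82, 1.03 and 0.89 in spleen Treg, so the spleen Treg values lay within the range of liver Treg for the replication genes and below that range for the mitosis genes.

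**Figure D1:**
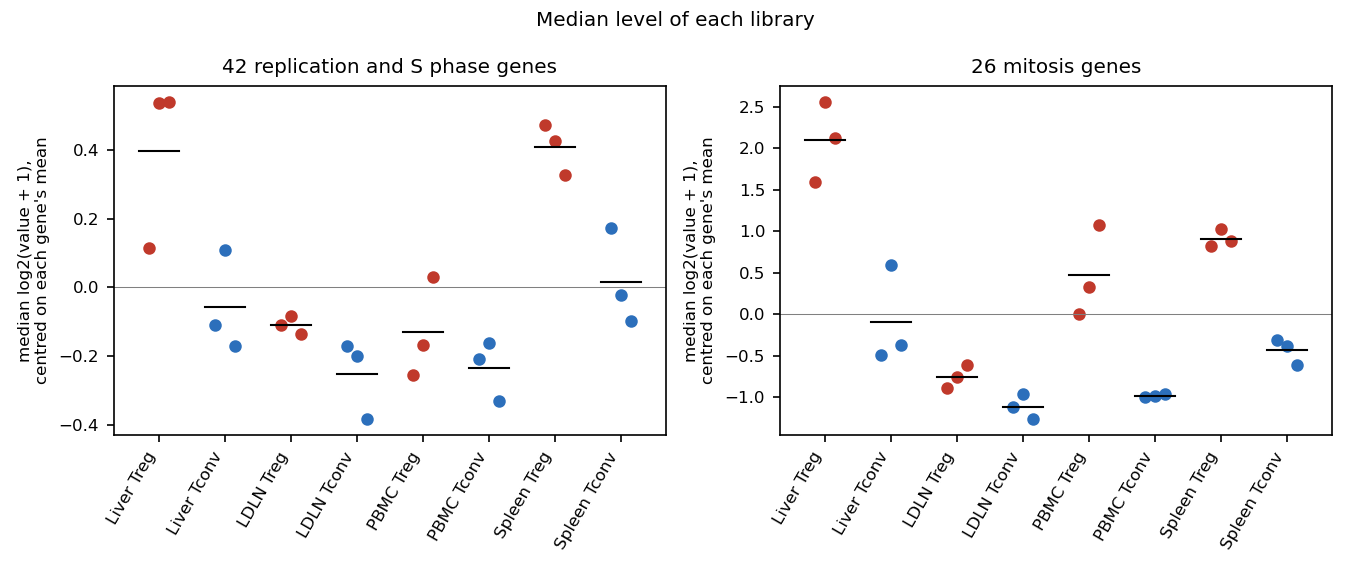
Median centred log2 value (vertical axis) of the 42 replication genes and of the 26 mitosis genes in each of the 24 libraries, by group; each point is 1 pool and the line marks the group mean. Replication medians run from −0.38 (LDLN Tconv 3) to 0.54 (liver Treg 2 and 3), a narrower spread than the mitosis medians of the same libraries, which run from −1.26 to 2.56.

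Treg were compared with Tconv within each tissue, the comparison that the sort sets up, by limma with Benjamini-Hochberg adjustment over the 18576 genes tested (called at an adjusted p under 0.05). In liver, 20 of the 42 genes were called higher in Treg, or 47.6%, where 10.2% of all genes tested were called higher, and none was called lower (10.3% of all genes). Spleen had 18 higher (10.1% of all genes) and 3 lower (8.75%), PBMC 8 higher (10.2%) and 1 lower (7.95%), and LDLN 4 higher (7.83%) and 2 lower (5.99%). The median log2 difference over the 42 genes was 0.46 in liver, 0.39 in spleen, 0.14 in LDLN and 0.08 in PBMC, while the median over all genes tested lay between −0.02 and 0.03. Of the 42, 15 were called higher in both liver and spleen, 4 (Cdc6, Mcm10, Tyms and Tk1) in all 4 tissues and 15 in none. Pools did not overlap, with all 3 Treg above all 3 Tconv, for 20 genes in liver (16.9% of all genes tested), 24 in spleen (17.5%), 17 in LDLN (17.2%) and 8 in PBMC (15.8%), where the members' share of 19% lay near that of all genes. All 3 Treg were below all 3 Tconv for 3 genes in liver (18.1% of all genes), 3 in spleen (16.9%), 6 in LDLN (18.8%) and 2 in PBMC (14%).

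The liver count moved with the Tconv libraries that hold Foxp3 reads: without the 5 it was 9 (Mcm10, Gins1, Pola1, Pole, Lig1, Rrm2, Tyms, Tk1 and Uhrf1), with liver Tconv 2 alone in its group and assumed to vary like the other groups, and without liver Tconv 2 it was 20. Liver Tconv 2, the only liver Tconv pool in the fit without the 5, was the highest of its 3 pools for 31 of the 42 genes. It also held the high marker sums given above. Whether the Foxp3 reads or this pool moved the count was not tested. The LDLN count of 6 was 17 (11 higher and 6 lower) when only the 2 LDLN groups were fitted, and 11 with the pool number as a block within tissue (8 higher and 3 lower; added were Cdc45, adjusted p = 0.0473, Chaf1a, 0.0224, Gins2, 0.0279, Mcm6, 0.0165, and, lower, Rpa1, 0.0168), 3 without LDLN Treg 2, and 10 without PBMC Treg 1 or without spleen Tconv 1.

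**Figure D2:**
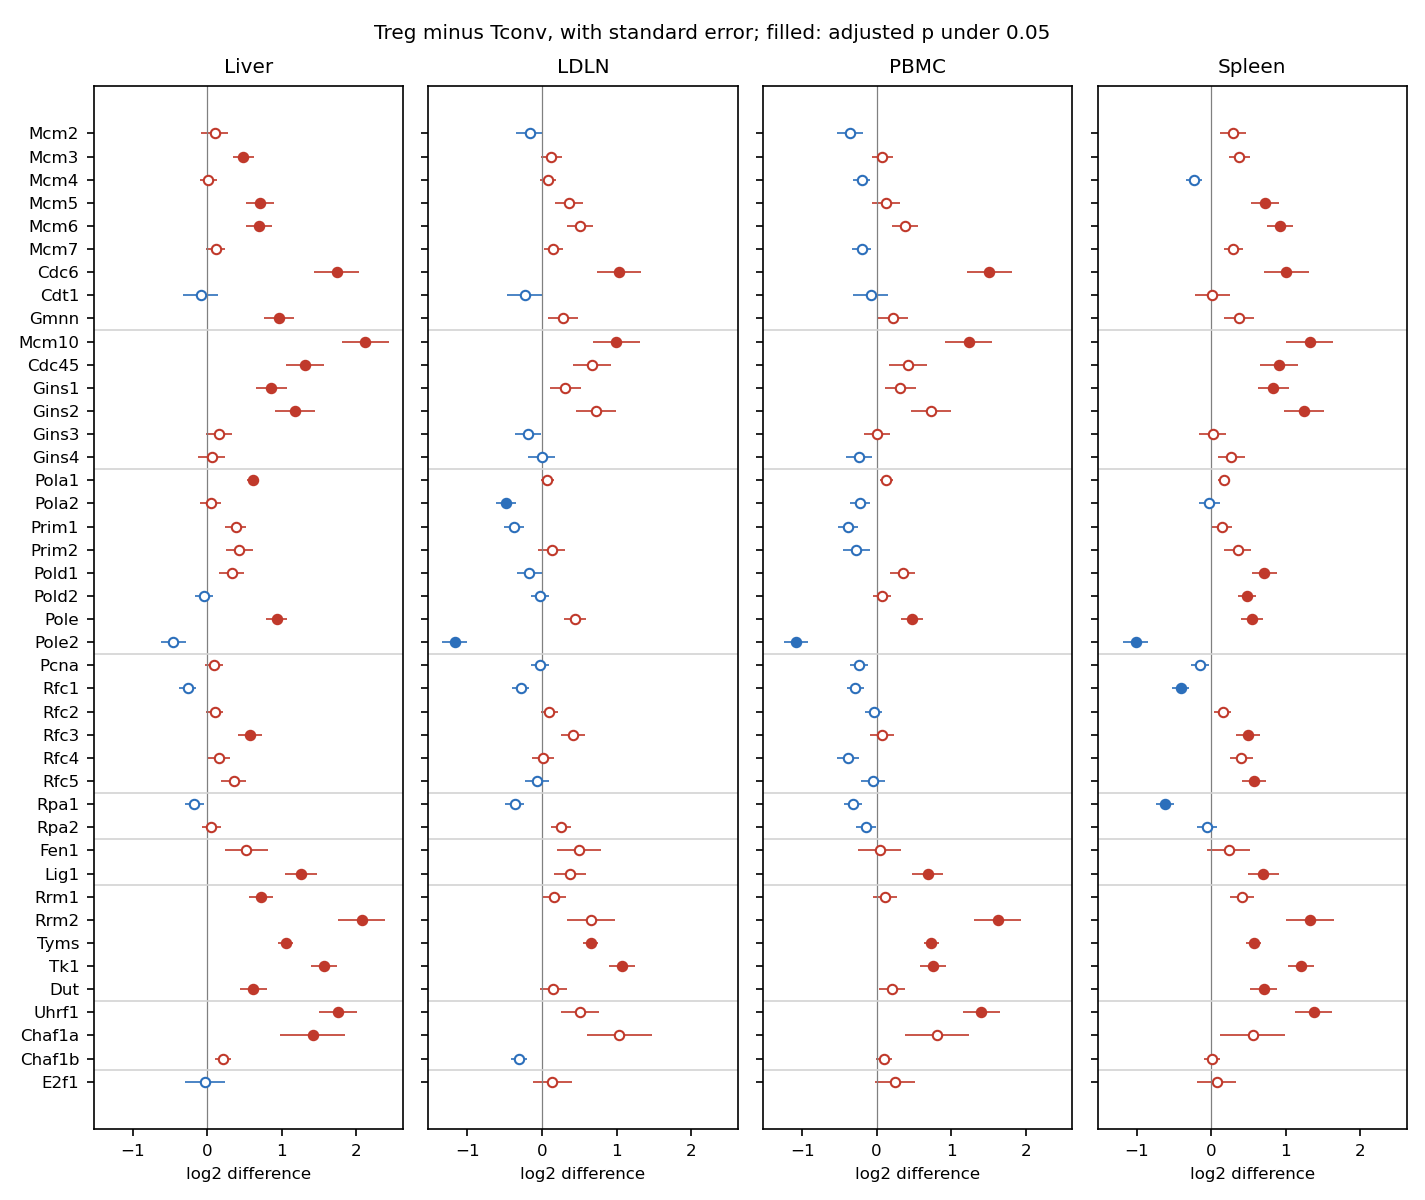
Log2 difference of Treg against Tconv for each of the 42 genes in liver, LDLN, PBMC and spleen, ordered by role; filled points passed the test at an adjusted p under 0.05 and bars are standard errors. Mcm10 (2.12) and Rrm2 (2.07) reach furthest to the right in liver, and Pole2 lies left of 0 in all 4 tissues.

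Origin licensing genes split into a part that was higher in Treg and a part that was called in no tissue. Values by library, here and below, are normalized read counts of pools 1, 2 and 3 in that order. In liver 5 of 9 were called higher, in spleen 3 and in LDLN and PBMC 1 each. The shares of all genes called higher were 10.2% in liver, 10.1% in spleen, 7.83% in LDLN and 10.2% in PBMC. A count of 1 of 9 (11.1%) is about the share of all genes. The largest difference was that of Cdc6 (ENSMUSG00000017499, chromosome 11, 98907801 to 98923940), which recruits the helicase to origins. Cdc6 measured 293, 553 and 433 in the 3 liver Treg pools and 92.7, 203 and 99.7 in liver Tconv. In LDLN, Cdc6 was at 122, 116 and 99.98 in Treg and 62.9, 65.6 and 39.1 in Tconv, and in PBMC at 173, 150.3 and 318 in Treg and 71.6, 70.6 and 68.6 in Tconv. Spleen Cdc6 reached 275, 322 and 236 in Treg and 171, 142 and 106 in Tconv. All Treg pools were above all Tconv pools in each tissue, and liver Treg 2 was the highest of the 24. On the log2 scale Cdc6 differed by 1.73 ± 0.299 (SE; adjusted p = 0.000218) in liver, 1.03 ± 0.299 (SE; adjusted p = 0.0227) in LDLN, 1.51 ± 0.299 (SE; adjusted p = 0.000901) in PBMC and 1.00 ± 0.299 (SE; adjusted p = 0.0213) in spleen. In LDLN it was no longer called without Tconv 3, Treg 1 or Treg 2 of LDLN (adjusted p = 0.134, 0.0855 and 0.0709, in that order), nor in spleen without Tconv 3, Treg 1 or Treg 2 of spleen (adjusted p = 0.105, 0.0597 and 0.086, in that order); the liver difference without the 5 Tconv libraries was 1.02 (adjusted p = 0.0896).

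Of the 6 subunits of the Mcm2-7 ring, Mcm3, Mcm5 and Mcm6 were higher in liver Treg and Mcm2, Mcm4 and Mcm7 were called in no tissue. Liver differences were 0.70 ± 0.177 (SE; adjusted p = 0.00681) for Mcm6, 0.71 ± 0.188 (SE; adjusted p = 0.00903) for Mcm5 and 0.48 ± 0.141 (SE; adjusted p = 0.0174) for Mcm3. The Mcm5 call was lost without liver Treg 2 (adjusted p = 0.0761), and the Mcm3 call without Tconv 1, Treg 2 or Treg 3 of liver (adjusted p = 0.0569, 0.126 and 0.0615, in that order). In spleen Mcm6 differed by 0.93 (adjusted p = 0.000711) and Mcm5 by 0.72 (adjusted p = 0.00904). Gmnn, which codes for geminin, the protein that binds Cdt1 and blocks a second round of licensing, differed by 0.96 ± 0.201 (SE; adjusted p = 0.00147) in liver and was not called elsewhere. Without the 5 Tconv libraries Mcm3, Mcm5, Mcm6 and Gmnn gave 0.45 (adjusted p = 0.254), 0.49 (adjusted p = 0.31), 0.44 (adjusted p = 0.348) and 0.70 (adjusted p = 0.178) in liver.

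The most abundant ring subunit per kilobase was Mcm4 (ENSMUSG00000022673, chromosome 16, 15623897 to 15637400). Mcm4 had values of 4093, 3956 and 4849.6 in the 3 liver Treg pools and 3881, 4173 and 4721 in liver Tconv. In LDLN, Mcm4 lay at 3423, 3327 and 3524 in Treg and 3373, 3382 and 2964 in Tconv, and in PBMC at 3362, 2735 and 3446 in Treg and 3854, 3440.2 and 3636 in Tconv. Spleen Mcm4 gave 4603, 5109 and 4500.4 in Treg and 6588, 5121 and 5087 in Tconv. Treg and Tconv overlapped in all 4 tissues, and spleen Tconv 1 was the highest library. Its liver difference was 0.01 ± 0.111 (SE; adjusted p = 0.95). Mcm2 counted 999.9, 1421 and 1301 in the 3 liver Treg pools and 1049.5, 1174 and 1227 in liver Tconv. In LDLN, Mcm2 stood at 953, 992 and 1090.3 in Treg and 1212, 1126 and 1069 in Tconv, and in PBMC at 577, 789 and 1003 in Treg and 1065, 876 and 1033 in Tconv. Spleen Mcm2 held 1263, 1340.2 and 1229 in Treg and 771, 1335 and 1098 in Tconv. The pools overlapped in each tissue and the liver difference was 0.10 (adjusted p = 0.744). In PBMC, Mcm2 was lower in Treg at an adjusted p of 0.0431 without PBMC Treg 3. Mcm7 read 1399, 1999.6 and 1960.5 in the 3 liver Treg pools and 1596, 1731 and 1569 in liver Tconv. In LDLN, Mcm7 stood at 1654, 1423 and 1578 in Treg and 1445, 1427 and 1313 in Tconv, and in PBMC at 1712, 1379 and 1612 in Treg and 1902, 1849 and 1652 in Tconv. Spleen Mcm7 came to 1963, 2041 and 1749 in Treg and 1829.6, 1319.8 and 1563 in Tconv. Mcm7 pools overlapped everywhere as well; the spleen difference of 0.30 (adjusted p = 0.115) was called without spleen Tconv 1 (adjusted p = 0.0393). Cdt1 is the loading factor that geminin binds. Cdt1 measured 328, 346 and 508 in the 3 liver Treg pools and 317, 580.1 and 379 in liver Tconv. In LDLN, Cdt1 was at 222, 206 and 239 in Treg and 306, 249 and 231 in Tconv, and in PBMC at 213, 351 and 251 in Treg and 297, 213 and 349 in Tconv. Spleen Cdt1 reached 629, 522 and 439.6 in Treg and 459, 662 and 462 in Tconv. Cdt1 overlapped in all tissues, and its means in spleen Treg and spleen Tconv were the highest of the 8 groups.

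Helicase activation genes were higher in Treg for 4 of 6 in liver and 4 in spleen (Mcm10, Cdc45, Gins1 and Gins2 in both), with 1 each in LDLN and PBMC. Over all genes the shares were 10.2% in liver, 10.1% in spleen, 7.83% in LDLN and 10.2% in PBMC. Mcm10 (ENSMUSG00000026669, chromosome 2, 4989714 to 5012791), which helps the loaded helicase unwind, had the largest liver difference of the 42. Mcm10 had values of 273, 447 and 391 in the 3 liver Treg pools and 82.1, 109 and 62.8 in liver Tconv. In LDLN, Mcm10 lay at 98.6, 119 and 121 in Treg and 77.1, 57.4 and 39.1 in Tconv, and in PBMC at 90.8, 96.9 and 209 in Treg and 48.1, 56.9 and 50.1 in Tconv. Spleen Mcm10 gave 194, 259 and 179 in Treg and 108, 101 and 52.2 in Tconv. Treg pools were above Tconv pools in each tissue, and liver Treg held the 3 highest values of the 24. Mcm10 differed by 2.12 ± 0.315 (SE; adjusted p = 4.54e-05) in liver, 1.32 ± 0.315 (SE; adjusted p = 0.00495) in spleen, 1.23 ± 0.315 (SE; adjusted p = 0.00782) in PBMC and 1.00 ± 0.315 (SE; adjusted p = 0.0376) in LDLN. The PBMC call was lost without PBMC Treg 3 (adjusted p = 0.0673). The LDLN call was lost without Tconv 2, Tconv 3, Treg 1, Treg 2 or Treg 3 of LDLN (adjusted p = 0.0801, 0.192, 0.0625, 0.11 and 0.106, in that order), and with edgeR (adjusted p = 0.0548).

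Cdc45, which travels with the active helicase, differed by 1.31 ± 0.254 (SE; adjusted p = 0.000678) in liver and 0.91 ± 0.254 (SE; adjusted p = 0.0143) in spleen. For Gins2 the differences were 1.17 ± 0.268 (SE; adjusted p = 0.00302) and 1.24 ± 0.268 (SE; adjusted p = 0.0022), and for Gins1 0.86 ± 0.208 (SE; adjusted p = 0.00473) and 0.83 ± 0.208 (SE; adjusted p = 0.00702). Without the 5 Tconv libraries the liver values were 0.81 (adjusted p = 0.198) for Cdc45, 0.90 (adjusted p = 0.123) for Gins2 and 1.22 (adjusted p = 0.0187) for Gins1. The remaining GINS subunits were called in no tissue. Gins3 counted 178, 243 and 167 in the 3 liver Treg pools and 158, 182 and 180.4 in liver Tconv. In LDLN, Gins3 stood at 211, 194 and 185 in Treg and 249, 232 and 194 in Tconv, and in PBMC at 258, 163 and 212 in Treg and 199, 213 and 208 in Tconv. Spleen Gins3 held 145, 124 and 154 in Treg and 109.8, 144 and 169 in Tconv. Group means of Gins3 were lowest in spleen, and its pools overlapped in each tissue. Gins4 read 407, 441 and 479 in the 3 liver Treg pools and 373, 458 and 447 in liver Tconv. In LDLN, Gins4 stood at 398, 410.0 and 368 in Treg and 421, 354 and 408 in Tconv, and in PBMC at 257, 437 and 463 in Treg and 409, 470.2 and 441 in Tconv. Spleen Gins4 came to 370.2, 450.3 and 429.5 in Treg and 264, 386 and 401 in Tconv. Gins4, the most abundant of the 6 per kilobase, also overlapped in each tissue. Liver differences were 0.16 (adjusted p = 0.576) for Gins3 and 0.06 (adjusted p = 0.849) for Gins4.

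Polymerase and primase genes were mixed in direction. In liver 2 of 8 were higher in Treg (Pola1 and Pole), in spleen 3 higher (Pold1, Pold2 and Pole) and 1 lower (Pole2), in PBMC 1 higher (Pole) and 1 lower (Pole2), and in LDLN 2 lower (Pole2 and Pola2). Of all genes, 10.2% were higher in liver, 10.1% in spleen and 10.2% in PBMC. The shares called lower were 8.75% in spleen, 7.95% in PBMC and 5.99% in LDLN. Pole (ENSMUSG00000007080, chromosome 5, 110286306 to 110337474) is the catalytic subunit of the leading strand polymerase. Pole measured 473, 531 and 523 in the 3 liver Treg pools and 281, 264 and 256 in liver Tconv. In LDLN, Pole was at 303, 312 and 350.4 in Treg and 233, 260.0 and 219 in Tconv, and in PBMC at 242, 340.0 and 377 in Treg and 248, 209.8 and 219 in Tconv. Spleen Pole reached 470.4, 424 and 399 in Treg and 366, 260.3 and 269.6 in Tconv. Treg exceeded Tconv without overlap in liver, LDLN and spleen. The differences were 0.93 ± 0.147 (SE; adjusted p = 8.61e-05) in liver, 0.54 (adjusted p = 0.0118) in spleen, 0.48 (adjusted p = 0.0253) in PBMC and 0.44 (adjusted p = 0.051) in LDLN. The PBMC call was lost without Tconv 2, Tconv 3, Treg 2 or Treg 3 of PBMC (adjusted p = 0.0891, 0.0741, 0.0985 and 0.145, in that order), and the spleen call without Tconv 2, Tconv 3 or Treg 1 of spleen (adjusted p = 0.0585, 0.0561 and 0.064, in that order).

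The partner subunit Pole2 (ENSMUSG00000020974, chromosome 12, 69201773 to 69228195) ran the other way. Pole2 had values of 229, 310.4 and 269.9 in the 3 liver Treg pools and 410.3, 362 and 336 in liver Tconv. In LDLN, Pole2 lay at 199, 240.4 and 215 in Treg and 525, 476 and 474 in Tconv, and in PBMC at 148, 213 and 274 in Treg and 380.2, 521 and 418 in Tconv. Spleen Pole2 gave 182, 199.6 and 196 in Treg and 398, 372 and 400.1 in Tconv. All 3 Treg pools were below all 3 Tconv pools in each of the 4 tissues. Pole2 fell by 1.17 on the log2 scale in LDLN (SE 0.167; adjusted p = 2.72e-05), by 1.08 in PBMC (adjusted p = 6.64e-05) and by 1.02 in spleen (adjusted p = 0.000145). In liver the difference was −0.46 (adjusted p = 0.0555), with an adjusted p of 0.0443 with the pool number as a block within tissue. The liver difference was also called without Treg 2 of liver, or Tconv 2, Treg 1 or Treg 3 of PBMC (adjusted p = 0.0428, 0.0465, 0.0171 and 0.0273, in that order). The subunits Pole and Pole2 therefore differed in opposite directions in PBMC and spleen. An unnamed gene model, Gm49384, shares 8.5% of the Pole2 exon bases on the same strand.

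Pola1 (ENSMUSG00000006678, chromosome X, 93304767 to 93632155), the catalytic subunit of polymerase alpha, had closely grouped pools. Pola1 counted 1221, 1254 and 1204 in the 3 liver Treg pools and 812, 803 and 783 in liver Tconv. In LDLN, Pola1 stood at 717, 752 and 839.9 in Treg and 739.7, 717 and 735 in Tconv, and in PBMC at 755, 642 and 731 in Treg and 653, 689.5 and 598 in Tconv. Spleen Pola1 held 952, 898 and 883 in Treg and 842, 804 and 782 in Tconv. Liver Treg stood above every other library of the 24, and Treg also exceeded Tconv without overlap in spleen. The differences were 0.62 ± 0.0816 (SE; adjusted p = 1.17e-05) in liver, 0.17 (adjusted p = 0.16) in spleen, 0.13 (adjusted p = 0.318) in PBMC and 0.07 (adjusted p = 0.684) in LDLN. Pola2 (ENSMUSG00000024833, chromosome 19, 5940542 to 5964202), its regulatory partner, showed another pattern. Pola2 read 384, 387 and 495 in the 3 liver Treg pools and 408, 425 and 389 in liver Tconv. In LDLN, Pola2 stood at 355, 340.2 and 328 in Treg and 551, 474 and 415 in Tconv, and in PBMC at 286, 409 and 369.9 in Treg and 367, 421 and 445 in Tconv. Spleen Pola2 came to 370.2, 368 and 377 in Treg and 326, 433 and 386 in Tconv. In LDLN all Treg pools were below all Tconv pools, and elsewhere they overlapped. The LDLN difference was −0.48 ± 0.138 (SE; adjusted p = 0.0203) and the liver difference 0.04 (adjusted p = 0.858). The LDLN call was lost without Tconv 1, Tconv 2, Treg 2 or Treg 3 of LDLN (adjusted p = 0.129, 0.0527, 0.0595 and 0.0687, in that order).

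Primase, which makes the RNA primers, was called in no tissue. Prim1 measured 618, 1008 and 778 in the 3 liver Treg pools and 595, 589.7 and 628 in liver Tconv. In LDLN, Prim1 was at 436, 459 and 437 in Treg and 599, 549 and 587 in Tconv, and in PBMC at 386, 444 and 527 in Treg and 577, 637 and 544 in Tconv. Spleen Prim1 reached 554, 613 and 487 in Treg and 490.4, 493 and 508 in Tconv. All Treg pools of Prim1 lay below all Tconv pools in LDLN and PBMC, while in liver 2 of 3 Treg pools lay above every Tconv pool. Its differences were 0.38 (adjusted p = 0.0524) in liver, −0.38 (adjusted p = 0.0687) in LDLN and −0.38 (adjusted p = 0.0545) in PBMC. The liver difference was called without Treg 1 of liver, or Treg 1 or Treg 3 of PBMC (adjusted p = 0.005, 0.0395 and 0.042, in that order), that in LDLN without Treg 1 or Treg 2 of liver (adjusted p = 0.0305 and 0.029, in that order) and that in PBMC without Treg 1 or Treg 2 of liver, or Treg 3 of PBMC (adjusted p = 0.0239, 0.0226 and 0.0217, in that order). Prim2 had values of 291, 443 and 491 in the 3 liver Treg pools and 307, 341 and 248 in liver Tconv. In LDLN, Prim2 lay at 285, 358 and 292 in Treg and 306, 275 and 269 in Tconv, and in PBMC at 199, 226 and 287 in Treg and 274, 313 and 265 in Tconv. Spleen Prim2 gave 402, 505 and 402 in Treg and 376, 365 and 285 in Tconv. Prim2 Treg pools exceeded Tconv pools in spleen, by 0.36 (adjusted p = 0.187). The liver difference of 0.43 (adjusted p = 0.0993) was called without liver Treg 1 (adjusted p = 0.0118).

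Polymerase delta was higher in spleen Treg. Pold2 (ENSMUSG00000020471, chromosome 11, 5872180 to 5878292) was the most abundant of the 8 per kilobase. Pold2 counted 350.4, 418 and 477 in the 3 liver Treg pools and 410.3, 459 and 406 in liver Tconv. In LDLN, Pold2 stood at 391.7, 349 and 399.9 in Treg and 406, 370.1 and 384 in Tconv, and in PBMC at 491, 487 and 522 in Treg and 578, 439.6 and 426 in Tconv. Spleen Pold2 held 766, 662 and 691 in Treg and 513, 457 and 554 in Tconv. Spleen Treg held the 3 highest values, and Treg and Tconv overlapped in the other tissues. The spleen difference was 0.48 ± 0.123 (SE; adjusted p = 0.00843), which was lost without spleen Treg 1 (adjusted p = 0.0519). Pold1, the catalytic subunit, differed by 0.71 ± 0.168 (SE; adjusted p = 0.00439) in spleen and by 0.33 (adjusted p = 0.182) in liver, where it was called without liver Treg 1 (adjusted p = 0.046).

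Among the clamp and its loader, Rfc3 was the only gene of 6 called in liver, and Rfc3 and Rfc5 were called higher and Rfc1 lower in spleen. Of all genes, 10.2% were called higher in liver, and 10.1% higher and 8.75% lower in spleen. A count of 1 of 6 is close to these shares. Pcna (ENSMUSG00000027342, chromosome 2, 132249162 to 132253314), the ring that holds polymerases on DNA, was the third most abundant of the 42 genes per kilobase. Pcna read 1802, 2173 and 2312 in the 3 liver Treg pools and 1652, 2119 and 2155 in liver Tconv. In LDLN, Pcna stood at 1219.6, 1343 and 1225 in Treg and 1328, 1269.6 and 1249 in Tconv, and in PBMC at 991, 1056 and 1201 in Treg and 1169, 1521 and 1156 in Tconv. Spleen Pcna came to 2295, 2340.1 and 2113 in Treg and 2639, 2553 and 2299 in Tconv. Treg and Tconv overlapped in all 4 tissues, and both were higher in liver and spleen than in LDLN and PBMC, with no pools shared. The liver difference of Treg against Tconv was 0.09 ± 0.119 (SE; adjusted p = 0.649).

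The loader subunits differed from each other. Rfc3 measured 422, 405 and 489.9 in the 3 liver Treg pools and 277, 346 and 267 in liver Tconv. In LDLN, Rfc3 was at 422, 439 and 409 in Treg and 370.4, 312 and 275 in Tconv, and in PBMC at 332, 286 and 291 in Treg and 258, 394 and 233 in Tconv. Spleen Rfc3 reached 489, 540.0 and 487 in Treg and 420.1, 337 and 322 in Tconv. Treg pools of Rfc3 were all above the Tconv pools in liver, LDLN and spleen, with differences of 0.57 ± 0.162 (SE; adjusted p = 0.0146), 0.42 (adjusted p = 0.0982) and 0.50 (adjusted p = 0.0345). The liver call was lost without Tconv 1, Tconv 3 or Treg 3 of liver (adjusted p = 0.056, 0.0753 and 0.0611, in that order), and without the 5 Tconv libraries it was 0.34 (adjusted p = 0.426); the spleen call was lost without Tconv 2, Tconv 3, Treg 1, Treg 2 or Treg 3 of spleen (adjusted p = 0.0942, 0.132, 0.0728, 0.115 and 0.0581, in that order). Rfc1 had values of 1786, 1885 and 2094 in the 3 liver Treg pools and 2237, 2375 and 2288 in liver Tconv. In LDLN, Rfc1 lay at 2014, 1904 and 1943 in Treg and 2438, 2364 and 2350.3 in Tconv, and in PBMC at 2440.0, 1656 and 1687 in Treg and 2265, 2424 and 2245 in Tconv. Spleen Rfc1 gave 2108, 1927 and 1759 in Treg and 2899.9, 2451 and 2374 in Tconv. For Rfc1, the large subunit, all Treg pools lay below all Tconv pools in liver, LDLN and spleen. Rfc1 fell by 0.41 in spleen (SE 0.114; adjusted p = 0.0135) and differed by −0.26 (adjusted p = 0.113) in liver. The spleen call was lost without Tconv 1 or Treg 3 of spleen (adjusted p = 0.0782 and 0.0664, in that order), and the liver difference was called without PBMC Treg 1 (adjusted p = 0.0264).

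Rfc5 differed by 0.58 ± 0.164 (SE; adjusted p = 0.0161) in spleen, a call that was lost without Tconv 1 or Treg 2 of spleen (adjusted p = 0.126 and 0.063, in that order). Rfc2 counted 1249, 1617 and 1649.9 in the 3 liver Treg pools and 1309.6, 1616 and 1290.1 in liver Tconv. In LDLN, Rfc2 stood at 1431, 1389 and 1218 in Treg and 1362, 1301 and 1112 in Tconv, and in PBMC at 1287, 1277 and 1321 in Treg and 1389, 1417 and 1197 in Tconv. Spleen Rfc2 held 1628, 1638 and 1506 in Treg and 1578, 1384 and 1331 in Tconv. Rfc2 overlapped in each tissue and varied least of the 42 genes together with Gins4. Rfc4 read 418, 606 and 562 in the 3 liver Treg pools and 441, 498 and 468 in liver Tconv. In LDLN, Rfc4 stood at 471, 469 and 468 in Treg and 519, 465 and 419 in Tconv, and in PBMC at 251, 284 and 406 in Treg and 388, 443 and 375 in Tconv. Spleen Rfc4 came to 553, 576 and 496 in Treg and 366, 449 and 416 in Tconv. Rfc4 overlapped outside spleen, where all 3 Treg pools were higher. The spleen difference was 0.40 (adjusted p = 0.0695), called without Treg 1 of liver, or Treg 1 or Treg 3 of PBMC (adjusted p = 0.0465, 0.0466 and 0.03, in that order), and that in PBMC was −0.39 (adjusted p = 0.0867), called without PBMC Treg 3 (adjusted p = 0.00659).

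Replication protein A coats the single strands that the helicase exposes. Rpa1 (ENSMUSG00000000751, chromosome 11, 75298166 to 75348324), its large subunit, was the most abundant gene per kilobase. Rpa1 measured 6769, 7480.2 and 7705 in the 3 liver Treg pools and 7755, 7979 and 9033 in liver Tconv. In LDLN, Rpa1 was at 5309.8, 5368 and 5259 in Treg and 6774, 7135 and 6654 in Tconv, and in PBMC at 8226, 5799 and 5906 in Treg and 8503, 8023 and 7975 in Tconv. Spleen Rpa1 reached 5919, 5730.3 and 5495 in Treg and 11226, 7979.8 and 7595 in Tconv. Treg lay below Tconv without overlap in liver, LDLN and spleen. Rpa1 fell by 0.62 in spleen (SE 0.125; adjusted p = 0.0011), and its differences elsewhere were −0.37 (adjusted p = 0.0542) in LDLN, −0.32 (adjusted p = 0.087) in PBMC and −0.17 (adjusted p = 0.36) in liver. In LDLN it was called without Treg 1 or Treg 2 of PBMC, or Tconv 1 or Tconv 3 of spleen (adjusted p = 0.0187, 0.0493, 0.0138 and 0.0424, in that order), and in PBMC without Treg 1 of PBMC, or Tconv 1 of spleen (adjusted p = 0.00579 and 0.028, in that order). Rpa2 had values of 1004, 1231 and 1376 in the 3 liver Treg pools and 1042, 1257 and 1156 in liver Tconv. In LDLN, Rpa2 lay at 1133, 1253 and 1012 in Treg and 1025, 1034 and 792 in Tconv, and in PBMC at 1076, 947 and 1011 in Treg and 1066, 1292 and 998 in Tconv. Spleen Rpa2 gave 1244, 1294 and 1129.9 in Treg and 1458, 1232 and 1137 in Tconv. Rpa2 overlapped in all 4 tissues, with 0.06 (adjusted p = 0.809) in liver.

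Okazaki fragments are trimmed by the flap nuclease Fen1 and sealed by DNA ligase 1. Lig1 counted 739, 1206 and 969 in the 3 liver Treg pools and 378, 472 and 354 in liver Tconv. In LDLN, Lig1 stood at 525, 546 and 479.9 in Treg and 476, 445 and 299 in Tconv, and in PBMC at 484, 399 and 532 in Treg and 360.1, 296 and 231 in Tconv. Spleen Lig1 held 981, 844 and 846 in Treg and 754, 491 and 441 in Tconv. Lig1 (ENSMUSG00000056394, chromosome 7, 13277283 to 13311433) was higher in all Treg pools than in all Tconv pools of each tissue. The differences were 1.26 ± 0.211 (SE; adjusted p = 0.000169) in liver, 0.70 (adjusted p = 0.0234) in spleen, 0.68 (adjusted p = 0.0269) in PBMC and 0.37 (adjusted p = 0.311) in LDLN. The PBMC call was lost without Tconv 2, Tconv 3, Treg 1 or Treg 3 of PBMC (adjusted p = 0.0579, 0.15, 0.0666 and 0.103, in that order), and the spleen call without Tconv 2, Tconv 3 or Treg 1 of spleen (adjusted p = 0.0789, 0.123 and 0.096, in that order). Fen1 read 29.9, 47.4 and 50.03 in the 3 liver Treg pools and 28.7, 32.7 and 24.9 in liver Tconv. In LDLN, Fen1 stood at 31.3, 35.9 and 34.3 in Treg and 22.3, 21.1 and 28.1 in Tconv, and in PBMC at 35.9, 17.2 and 27.7 in Treg and 21.2, 32.7 and 22.5 in Tconv. Spleen Fen1 came to 40.2, 27.0 and 28.3 in Treg and 28.9, 19.05 and 33.5 in Tconv. Fen1 was low throughout, 84.2% of its exon bases are shared with other genes, and its pools overlapped outside LDLN. The liver difference was 0.52 (adjusted p = 0.222).

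Nucleotide supply was the role most often higher in Treg: 5 of 5 genes in liver, 4 in spleen, 3 in PBMC and 2 in LDLN, against 10.2%, 10.1%, 10.2% and 7.83% of all genes. Rrm2 (ENSMUSG00000020649, chromosome 12, 24708241 to 24714146) is the small subunit of ribonucleotide reductase, which makes deoxyribonucleotides. Rrm2 measured 2456, 4505 and 4023 in the 3 liver Treg pools and 640.0, 1342 and 702 in liver Tconv. In LDLN, Rrm2 was at 497, 712 and 639 in Treg and 396, 494 and 293 in Tconv, and in PBMC at 874, 1242 and 2394 in Treg and 454, 566 and 345 in Tconv. Spleen Rrm2 reached 1615, 2155 and 1952 in Treg and 904, 753 and 636 in Tconv. Treg exceeded Tconv without overlap in each tissue, and liver Treg held the 3 highest values of the 24. Rrm2 was higher by 2.07 ± 0.318 (SE; adjusted p = 6.39e-05) in liver, 1.62 ± 0.318 (SE; adjusted p = 0.00082) in PBMC and 1.32 ± 0.318 (SE; adjusted p = 0.0051) in spleen, and differed by 0.66 (adjusted p = 0.209) in LDLN. The liver difference without the 5 Tconv libraries was 1.40 (adjusted p = 0.0499).

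Thymidylate is made by Tyms and salvaged by Tk1, and both were called in all 4 tissues. Tyms had values of 1791, 2039 and 1848 in the 3 liver Treg pools and 1034, 875 and 837 in liver Tconv. In LDLN, Tyms lay at 1445, 1364 and 1479.7 in Treg and 899, 898 and 923 in Tconv, and in PBMC at 1226, 1407 and 1572 in Treg and 856, 841 and 817 in Tconv. Spleen Tyms gave 1399, 1583 and 1499 in Treg and 1144, 985 and 905 in Tconv. Tyms (ENSMUSG00000025747, chromosome 5, 30058202 to 30073617) had tight pools with no overlap between cell types in any tissue. It was higher by 1.05 ± 0.101 (SE; adjusted p = 1.88e-07) in liver, 0.73 (adjusted p = 1.66e-05) in PBMC, 0.66 (adjusted p = 6.86e-05) in LDLN and 0.57 (adjusted p = 0.000336) in spleen. Tk1 counted 839, 1239 and 1086 in the 3 liver Treg pools and 349.6, 465 and 266 in liver Tconv. In LDLN, Tk1 stood at 728, 720.2 and 666 in Treg and 367, 343 and 295 in Tconv, and in PBMC at 471, 493 and 689 in Treg and 341, 353 and 277 in Tconv. Spleen Tk1 held 751, 772 and 751 in Treg and 353, 329 and 306 in Tconv. Tk1 (ENSMUSG00000025574, chromosome 11, 117815526 to 117826092) likewise did not overlap in any tissue. Its differences were 1.57 ± 0.174 (SE; adjusted p = 1.41e-06) in liver, 1.20 (adjusted p = 3.51e-05) in spleen, 1.07 (adjusted p = 0.000122) in LDLN and 0.75 (adjusted p = 0.00357) in PBMC. Leaving out any 1 library, or the 5 Tconv libraries together, removed none of these 8 calls.

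Rrm1, the large reductase subunit, differed by 0.72 ± 0.160 (SE; adjusted p = 0.00223) in liver, and Dut, which clears dUTP so that uracil stays out of DNA, by 0.62 ± 0.178 (SE; adjusted p = 0.0162) in liver and 0.70 (adjusted p = 0.00755) in spleen. The liver call on Dut was lost without Tconv 3 or Treg 2 of liver (adjusted p = 0.106 and 0.0996, in that order), and the spleen call without spleen Tconv 1 (adjusted p = 0.0613). Without the 5 Tconv libraries the liver values were 0.50 (adjusted p = 0.178) for Rrm1 and 0.34 (adjusted p = 0.491) for Dut. In spleen Rrm1 differed by 0.41 (adjusted p = 0.0775), and was called without Treg 3 of PBMC, or Tconv 1 of spleen (adjusted p = 0.0489 and 0.0423, in that order).

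Of the genes that copy chromatin, Uhrf1 and Chaf1a were higher in liver Treg and Chaf1b was called in no tissue. Uhrf1 (ENSMUSG00000001228, chromosome 17, 56303321 to 56323486) recognizes hemimethylated DNA behind the fork and brings in the maintenance methyltransferase. Uhrf1 read 634, 1177 and 983 in the 3 liver Treg pools and 272, 332 and 211 in liver Tconv. In LDLN, Uhrf1 stood at 376, 317 and 315 in Treg and 234, 282 and 198 in Tconv, and in PBMC at 451, 485 and 528 in Treg and 192, 195 and 164 in Tconv. Spleen Uhrf1 came to 857, 907 and 723 in Treg and 537, 286 and 210.0 in Tconv. Treg exceeded Tconv in all pools of each tissue. Uhrf1 was higher by 1.75 ± 0.253 (SE; adjusted p = 3.28e-05) in liver, 1.41 (adjusted p = 0.000347) in PBMC and 1.37 (adjusted p = 0.000497) in spleen, and differed by 0.51 (adjusted p = 0.23) in LDLN. Chaf1a, a subunit of the histone chaperone CAF-1, was the least abundant gene and differed by 1.41 ± 0.433 (SE; adjusted p = 0.0234) in liver. That call was lost without Tconv 1, Tconv 3, Treg 1 or Treg 2 of liver (adjusted p = 0.0923, 0.114, 0.0785 and 0.114, in that order), and without the 5 Tconv libraries it was 0.60 (adjusted p = 0.617). Chaf1b measured 580.1, 683 and 689 in the 3 liver Treg pools and 583, 562 and 544 in liver Tconv. In LDLN, Chaf1b was at 487, 468 and 499.9 in Treg and 582, 668 and 556 in Tconv, and in PBMC at 592, 503 and 654 in Treg and 514, 574 and 542 in Tconv. Spleen Chaf1b reached 617, 583 and 587 in Treg and 674, 538 and 575 in Tconv. Chaf1b, another CAF-1 subunit, was lower in all LDLN Treg pools and overlapped elsewhere, with 0.20 (adjusted p = 0.189) in liver and −0.31 (adjusted p = 0.0601) in LDLN. The LDLN difference was called without Treg 2 or Treg 3 of PBMC, or Tconv 1 of spleen (adjusted p = 0.0428, 0.0491 and 0.0411, in that order).

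E2f1 (ENSMUSG00000027490, chromosome 2, 154559407 to 154569892), the transcription factor whose motif the windows above were searched for, was low. E2f1 had values of 41.5, 83.7 and 62.5 in the 3 liver Treg pools and 57.4, 92.2 and 43.9 in liver Tconv. In LDLN, E2f1 lay at 47.4, 42.9 and 44.8 in Treg and 42.6, 46.8 and 34.1 in Tconv, and in PBMC at 78.5, 55.5 and 54.3 in Treg and 54.8, 56.9 and 45.0 in Tconv. Spleen E2f1 gave 101, 75.2 and 63.8 in Treg and 80.0, 69.8 and 74.5 in Tconv. Its pools overlapped in each tissue. The differences were −0.03 ± 0.263 (SE; adjusted p = 0.948) in liver, 0.14 (adjusted p = 0.835) in LDLN, 0.25 (adjusted p = 0.608) in PBMC and 0.07 (adjusted p = 0.891) in spleen.

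**Figure D3:**
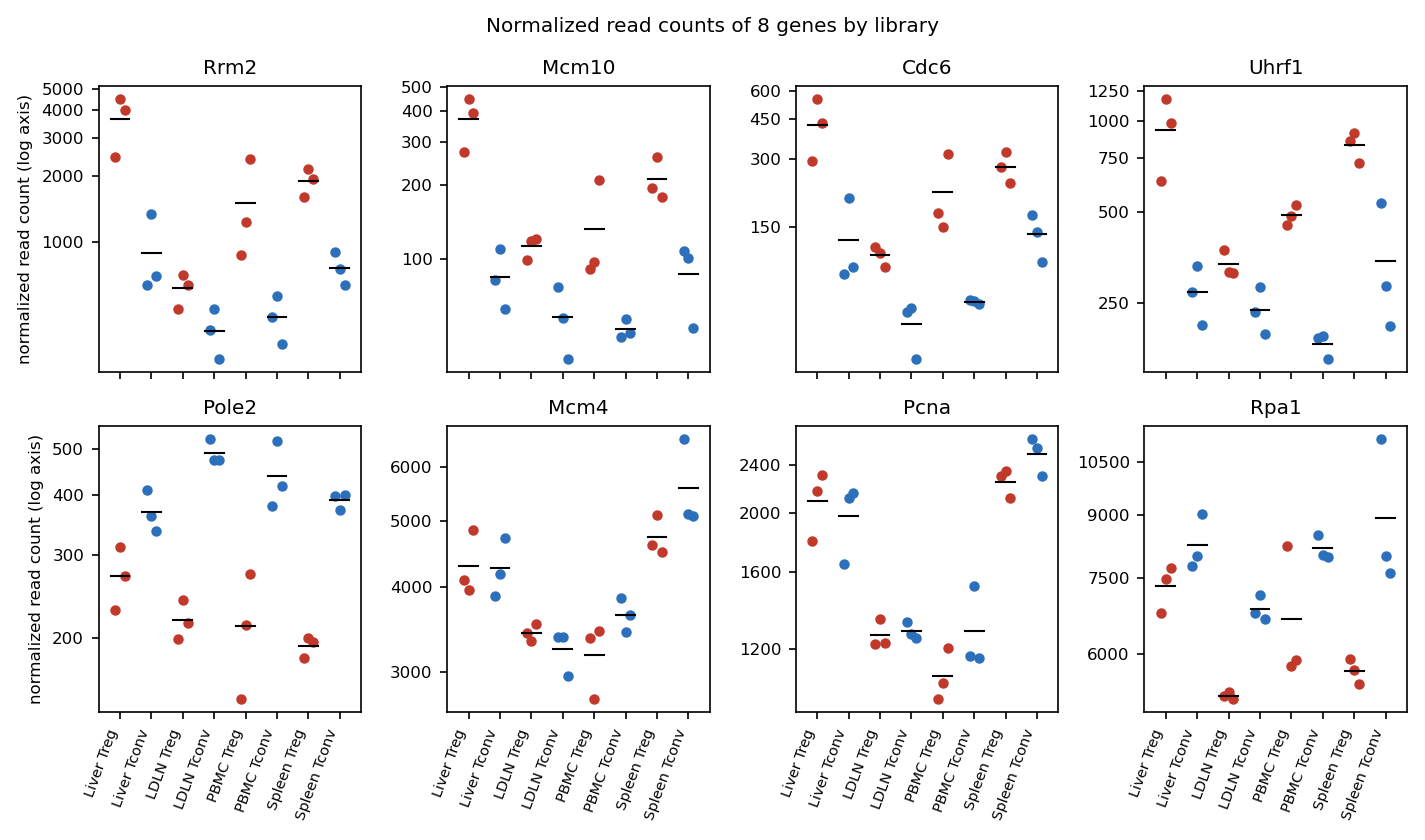
Normalized read counts (log axis) of 8 replication genes in the 24 libraries, Treg and Tconv side by side by tissue; each point is 1 pool and the line marks the group mean. Rrm2, Cdc6 and Mcm10 have their highest mean in liver Treg, the Treg pools of Pole2 lie below the Tconv pools in all 4 tissues, and Pcna is higher in liver and spleen than in LDLN and PBMC in both cell types.

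Liver was next set against the mean of the 3 lymphoid sites within each cell type. This comparison shares its liver libraries with the one above, so the results are given side by side and not as separate evidence. In Treg, 17 of the 42 genes were called higher in liver (9.66% of all genes) and 1 lower (10.1%), with a median difference of 0.38 against 0.03 over all genes. A call against this mean does not place liver above each site. Lig1 and Uhrf1 were called, but their liver Treg pools overlapped those of spleen Treg. For Cdc6, liver Treg 1 lay below spleen Treg 2 and PBMC Treg 3. For Rrm2, Mcm10 and Pola1 all liver Treg pools lay above every other library. Liver Treg held the highest group mean for 19 of the 42 genes and spleen Treg for 15. In Tconv, limma called 0 higher (2.58% of all genes) and 0 lower (0.598%), with a median of 0.10; 4 of the 42 had an unadjusted p under 0.05, edgeR called 0 and DESeq2 called 1 (Pcna, adjusted p = 0.0474). Without liver Treg 2 the Treg count was 11.

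By role, the Treg count covered 3 of 9 licensing genes, 2 of 6 for helicase activation, 3 polymerase and primase genes with 1 lower, 4 of 5 for nucleotide supply and 2 of 3 for chromatin copying, and 1 each for the clamp, single-strand binding and Okazaki joining. Of all genes 9.66% were called higher and 10.1% lower. The largest differences were 1.60 ± 0.260 (SE; adjusted p = 0.000165) for Rrm2, 1.35 ± 0.258 (SE; adjusted p = 0.000827) for Mcm10 and 1.16 ± 0.244 (SE; adjusted p = 0.00194) for Cdc6. In Tconv the same genes gave 0.74 (adjusted p = 0.151), 0.41 (adjusted p = 0.534) and 0.61 (adjusted p = 0.231). For Cdc6 the value without the 5 Tconv libraries was 1.18, with liver Tconv 2 as the only liver Tconv pool. That pool had the highest Cdc6 value of the 3 liver Tconv pools.

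Some genes that did not separate Treg from Tconv separated the tissues. Pcna was 0.52 ± 0.0969 (SE; adjusted p = 0.000622) higher in liver Treg than in the mean of lymphoid Treg. In Tconv the value was 0.30 (adjusted p = 0.111), and it was called without Tconv 1 of liver, or Tconv 2 of PBMC (adjusted p = 0.017 and 0.0369, in that order). The liver Treg pools of Pcna lay above those of LDLN and PBMC but overlapped those of spleen. In Tconv all spleen pools of Pcna lay above all liver pools. Prim1 differed by 0.71 ± 0.111 (SE; adjusted p = 0.000101) in Treg and 0.13 (adjusted p = 0.697) in Tconv. Rpa1, lower in spleen Treg than in spleen Tconv, was higher in liver Treg than in the mean of lymphoid Treg by 0.32 ± 0.102 (SE; adjusted p = 0.0287), a call that was lost without Treg 2 or Treg 3 of liver (adjusted p = 0.115 and 0.106, in that order). PBMC Treg 1 lay above every liver Treg pool for Rpa1. Pold2 was the gene that was lower in liver Treg than in the lymphoid mean, at −0.31 ± 0.1004 (SE; adjusted p = 0.0328). Its liver Treg pools overlapped those of LDLN Treg and lay below all pools of PBMC Treg and spleen Treg. That call was lost without Treg 1 or Treg 3 of LDLN, or Treg 1 or Treg 2 of liver, or Treg 1 of spleen (adjusted p = 0.0507, 0.0517, 0.268, 0.0931 and 0.0538, in that order). Tyms and Tk1, called in all 4 tissues above, differed by 0.39 (adjusted p = 0.00177) and 0.65 (adjusted p = 0.00248) in Treg.

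The difference of the Treg-Tconv differences, liver against the lymphoid mean, was called for 1 of the 42 genes (higher; 0.377% of all genes), and the median over the 42 was 0.27. That gene was Pola1, at 0.49 ± 0.0942 (SE; adjusted p = 0.0138): it was higher in liver Treg than in lymphoid Treg by 0.63 ± 0.0666 (SE; adjusted p = 1.68e-06) and differed by 0.14 (adjusted p = 0.346) in Tconv. The call was lost without liver Treg 2 (adjusted p = 0.0677) and without the 5 Tconv libraries (adjusted p = 0.148). Of the 42 genes 14 had an unadjusted p under 0.05; among those not called, Prim1 gave 0.58 (adjusted p = 0.0887), and was called without Treg 1 of liver, or Treg 3 of PBMC (adjusted p = 0.0154 and 0.0482, in that order), and Pole2 0.63 (adjusted p = 0.15), called without PBMC Treg 3 (adjusted p = 0.0467). With 2 genes called without liver Treg 1 and 3 without PBMC Treg 3, the count moved with single pools. For the genes with the largest differences in liver, the same contrast gave 0.87 (adjusted p = 0.347) for Rrm2 and 0.94 (adjusted p = 0.293) for Mcm10, so it was not shown that liver differed from the lymphoid sites in its Treg-Tconv difference.

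**Figure D4:**
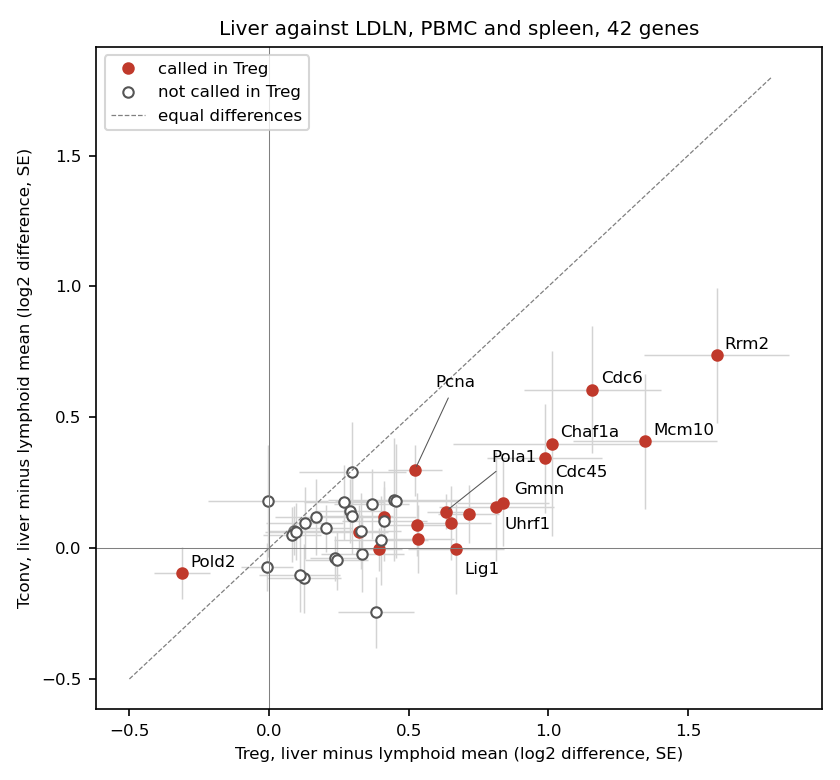
Each of the 42 genes by its log2 difference of liver against the lymphoid mean in Treg (horizontal axis) and in Tconv (vertical axis), with standard errors as bars; filled points were called in Treg, the dashed line marks equal differences, and the axes share libraries with the other comparisons. Rrm2 lies furthest to the right, at 1.60 in Treg and 0.74 in Tconv, and Pola1 stands at 0.63 in Treg and 0.14 in Tconv.

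The lymphoid sites were compared with each other, and erythroid markers were lower in LDLN than in PBMC and spleen, as given above; their part was not tested. In Treg a moderated F-test called 25 of the 42 genes, or 59.5% (38.8% of all genes). The highest mean of the 25 lay in spleen for 24 and in PBMC for 1, with the lowest in PBMC for 16 and in LDLN for 8. This order of means, and that in Tconv below, was not set beside the order over all genes called. Pcna led (adjusted p = 1.22e-06), followed by Pold1 (1.98e-05), Pold2 (3.05e-05) and Mcm5 (0.000235). Mean Pold1 was 917 ± 97.1 in spleen Treg, 812 ± 153 in PBMC Treg and 405 ± 46.9 in LDLN Treg (SD, n = 3). Mcm5 means were 1987 ± 183, 938 ± 249 and 1150.0 ± 93.0 in that order. For Pold1, LDLN Treg were the lowest; for Mcm5 it was PBMC Treg.

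In Tconv 11 of 42 were called, or 26.2%, which is about the share over all genes (27.4%), with the highest mean in spleen for 10. Pcna (adjusted p = 1.71e-06) and Mcm4 (3.48e-05) led: Pcna had means of 2497 ± 177 in spleen, 1282 ± 207 in PBMC and 1282 ± 41.0 in LDLN (SD, n = 3). The Tconv count was 4 without spleen Tconv 1, 7 without LDLN Tconv 1 or PBMC Tconv 3, and 18 without liver Treg 1. The Treg-Tconv difference itself was called to differ among the lymphoid sites for 0 of the 42 genes by limma, edgeR and DESeq2 (0.953% of all genes by limma), with 9 at an unadjusted p under 0.05. It was called for Rfc4 without PBMC Treg 3 (adjusted p = 0.0325) and for Rfc5 without spleen Tconv 2 (0.0336).

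Related genes from 7 further lists were read in the same fits. Of 14 genes for origin recognition and firing, 3 were called higher and 4 lower in liver Treg than in liver Tconv, where 10.2% of all genes were higher and 10.3% lower. Ticrr, which helps start origins, was higher by 1.83 ± 0.312 (SE; adjusted p = 0.000194) and Orc1, a subunit of the origin recognition complex, by 0.92 (adjusted p = 0.00184), while Orc2 of the same complex fell by 0.38 (adjusted p = 0.0147). The Orc2 call was lost without liver Tconv 3 (adjusted p = 0.0662) and without liver Treg 1 (0.0942). Without the 5 Tconv libraries Ticrr gave 1.31 (adjusted p = 0.0584) and Orc1 0.89 (0.0597). Of 20 other fork and chromatin assembly genes 5 were higher and 3 lower: the histone chaperone Asf1b was higher by 1.43 ± 0.218 (SE; adjusted p = 5.83e-05) and the chromatin remodeller Hells by 0.72 (adjusted p = 0.000194), and Asf1a fell by 0.55 (adjusted p = 0.00122). Without the 5 Tconv libraries the Asf1a difference had an adjusted p of 0.0822.

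Of 18 other nucleotide synthesis genes 2 were higher in liver Treg, a share of 11.1% that is about that of all genes (10.2%), and 7 were lower (10.3% of all genes). Samhd1, which breaks down deoxyribonucleotides, was higher by 1.03 ± 0.0824 (SE; adjusted p = 1.48e-08) in liver, 0.92 (adjusted p = 4.93e-08) in LDLN, 1.08 (adjusted p = 5.4e-09) in PBMC and 0.57 (adjusted p = 3.92e-05) in spleen. Dctd, which makes dUMP for Tyms, changed direction with tissue: −0.60 (adjusted p = 0.029) in liver, 0.68 (adjusted p = 0.0189) in LDLN and 0.61 (adjusted p = 0.03) in spleen. Liver Treg held Dctd at 85.9, 71.6 and 83.4 and liver Tconv at 136, 128 and 105, and in LDLN the pools were at 189, 213 and 274 in Treg and 118, 144 and 157 in Tconv. The difference between liver and the lymphoid mean was −1.10 ± 0.222 (SE; adjusted p = 0.019). The liver call was lost without liver Tconv 1 (adjusted p = 0.106), liver Tconv 2 (0.0687), liver Treg 2 (0.117) or the 5 Tconv libraries (0.175), and the difference from the lymphoid mean without liver Tconv 1 (0.0706), liver Treg 2 (0.097) or the 5 Tconv libraries (0.058). The LDLN call was lost without LDLN Tconv 1 (0.107) or LDLN Treg 3 (0.118), and the spleen call without spleen Tconv 1 (0.149), Tconv 2 (0.058), Treg 1 (0.051) or Treg 3 (0.179).

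All 26 mitosis genes were called higher in liver Treg, with a median of 2.24 where the 42 replication genes had 0.46. In spleen 23 of 26 were higher (median 1.42), in PBMC 23 (1.43) and in LDLN 1 (0.26). The shares of all genes were 10.2% in liver, 10.1% in spleen, 10.2% in PBMC and 7.83% in LDLN. The LDLN share of the mitosis genes (3.85%) was below that of all genes. PBMC, with 8 of 42 replication genes higher, had as many mitosis genes higher as spleen, with 18 of 42. Plk1, a kinase of mitosis, differed by 2.61 ± 0.348 (SE; adjusted p = 1.28e-05) in liver, and Mki67, a marker of cycling cells, by 2.43 (adjusted p = 9.39e-06). Of 16 genes of the RB and E2F family 7 were higher in liver Treg and none lower: Foxm1, which drives mitotic genes, by 2.14 (adjusted p = 1.43e-05) and the repressor E2f7 by 1.20 (adjusted p = 0.000226). Without the 5 Tconv libraries E2f7 gave an adjusted p of 0.0865. Of 10 G1 cyclins and kinases 2 were higher and 2 lower (10.2% and 10.3% of all genes), with Cdk6 at 0.94 (adjusted p = 0.0002) and Ccnd2 lower at −0.65 (adjusted p = 0.000638).

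Of 11 CDK inhibitors and antiproliferative genes tested (12 listed), 3 were higher and 1 lower in liver Treg (10.2% and 10.3% of all genes), among them Cdkn1c, which codes for p57, at 2.82 ± 0.416 (SE; adjusted p = 4.09e-05). Against lymphoid Treg, 7 of these 11 were higher in liver Treg (9.66% of all genes) with a median of 0.72, beside 17 of the 42 replication genes. The rise was not limited to Treg: against lymphoid Tconv, 4 of the 11 were higher in liver Tconv (2.58% of all genes) with a median of 0.51, beside 0 of the 42. Foxp3 itself differed by 3.35 (adjusted p = 0.0834) in liver, the Tconv libraries with Foxp3 reads included, and by 5.01 (adjusted p = 0.011) in spleen, and Il2ra, the receptor chain that Treg carry, by 3.22 (adjusted p = 1.81e-05) and 4.62 (adjusted p = 1.44e-07). For Foxp3 the liver difference without the 5 Tconv libraries was 6.02 (adjusted p = 1.91e-09).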

How the data were processed

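Bulk poly(A) RNA-seq of 24 libraries, amplified by the SMARTer method, was used. The values are normalized read counts per gene, a signal the authors deposited with 1 column per library; the submitters' processing notes name HTSeq 0.6.1p1, TopHat2 2.0.11, SAMtools 0.1.19, Trimmomatic 0.32 and Bowtie2 2.2.2 on GRCm38. The normalization method, strand setting and annotation are not given in the sources used here. Within each library the values are whole multiples of 1 step (100% within 0.001), as counts divided by 1 factor per library are; this gave back 17523927 to 25398037 reads per library for edgeR 4.0.16, which called 3894 genes in liver where limma called 3808, and DESeq2 1.42.0. Symbols were matched for 34645 of 35612 identifiers, and 967 had none. Genes that reached 10 in 3 or more libraries were kept (18576) and tested as log2(value + 1) with limma 3.58.1 in R 4.3.3: 8 group means, 16 residual degrees of freedom, a variance trend, and Benjamini-Hochberg adjustment over all genes tested, called under 0.05. A difference on this scale understates changes of genes with low values. The script was tested on simulated counts with the same dispersion for all genes and no pools that stood apart. That test does not show how the fit behaves with pools such as liver Treg 1 or liver Tconv 2.

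The members and gene lists were chosen with earlier results of these data known. Values by library are given for the member of each role that is highest per kilobase or has the largest liver difference, for members called against the median direction, for members called in all or none of the 4 tissues, and for Pola1; from other lists, up to 3 genes called in liver with the largest difference, plus Orc2 and Asf1a, which were chosen after their values were seen. Deviations of same-numbered Treg and Tconv pools of 1 tissue correlated positively in each pair. The correlations were 0.385, 0.188 and 0.102 in liver and 0.122, 0.147 and 0.31 in LDLN. They were 0.252, 0.0822 and 0.134 in PBMC and 0.0707, 0.136 and 0.416 in spleen. The block is given beside results in liver and LDLN where it changes a call, and for PBMC and spleen in the closing section. Other settings were pseudocounts of 0.1 and 10, no filter, a stricter filter (50), upper quartile scaling, quantile scaling, no variance trend, only the groups compared, a replicate block, edgeR, DESeq2, each library left out, and the 5 Tconv libraries with Foxp3 reads left out. Of 10 hepatocyte markers 1 (Cyp2e1) was matched, and its values are given with the other markers. The others were not used here.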

Additional observations from a re-analysis of the deposited data

Results flagged for a closer look

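The Treg-Tconv difference of Pola1 was larger in liver than in the mean of LDLN, PBMC and spleen by 0.49 on the log2 scale (limma, adjusted p = 0.0138), a call that was lost without liver Treg 2 (adjusted p = 0.0677) and without the 5 Tconv libraries with Foxp3 reads (adjusted p = 0.148). The liver difference of Pola1 was 0.62, and those of the lymphoid sites were 0.07, 0.13 and 0.17.

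For Dctd the same contrast was −1.10 (limma, adjusted p = 0.019): Treg were below Tconv in liver and above it in LDLN and spleen. That call was lost without liver Tconv 1 (adjusted p = 0.0706), liver Treg 2 (adjusted p = 0.097) or the 5 Tconv libraries (adjusted p = 0.058).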

How the results depend on the processing

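No called difference of a member reversed under any setting. Members called higher or lower in liver Treg against Tconv numbered 20, and 9 without the 5 Tconv libraries with Foxp3 reads; with 1 library left out they ran from 17 to 23. The LDLN count of 6 was 17 with only the groups compared, 11 with the replicate block within tissue and 10 with DESeq2, and 3 to 10 with 1 library left out. With 1 library left out the PBMC count of 9 ran from 7 to 13, the spleen count of 21 from 16 to 23, and the count of 18 for liver against lymphoid Treg from 11 to 23. For Tconv the count of 0 was 1 with DESeq2, 1 without the 5 Tconv libraries and 0 to 1 with 1 library left out. The 1 gene whose Treg-Tconv difference differed in liver became 2 with quantile scaling, 3 with DESeq2, 0 without the 5 Tconv libraries and 0 to 3 with 1 library left out. Among lymphoid sites the Treg count of 25 ran from 20 to 28; the Tconv count of 11 was 7 with no filter, 7 without the 5 Tconv libraries and 4 to 18 with 1 library left out; the count of 0 for the Treg-Tconv difference was 1 with the replicate block within tissue and 0 to 1 with 1 library left out. The replicate block within tissue gave 21 in liver, 12 in PBMC (added were Gins2, adjusted p = 0.0205, Rpa1, 0.0317, and Pold1, 0.0439) and 22 in spleen (added was Rrm1, 0.0227). Not every liver, PBMC or spleen pool correlated best with the pool of its own number. The block within tissue cannot be fitted to comparisons of tissues within 1 cell type. The pool number was also fitted as a block across all groups, which covers those comparisons. The cause of these shifts was not tested. Over single members, leaving out 1 library left 9802 of the values on the same side of the threshold, with 158 calls lost and 120 gained; the other settings left 5029, with 79 lost and 132 gained. Of 20 liver calls 15 held with any 1 library left out, as did 13 of 21 in spleen, 6 of 9 in PBMC and 3 of 6 in LDLN. Chaf1a, the gene with the lowest counts, had the largest standard error of the 42.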
